A study of Mus musculus with 2 samples.

Results

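Open chromatin was examined across the 4 Hox gene clusters in mouse hematopoietic stem cells that carried extra linker histone and in cells that did not. The clusters hold 39 protein-coding genes, of 21887 in the RefSeq annotation of the same build (GRCm38, also called mm10), chosen by the symbols Hoxa, Hoxb, Hoxc or Hoxd followed by a number. Each cluster was taken from 50 kb before its first to 50 kb after its last gene, 892 kb in all. This span held 3 of the 13012 accessible regions called in the H1C library and 13 of the 31843 called in the control library.

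The H1C library came from stem cells transduced with an MSCV retrovirus carrying H1C, a linker histone gene now named H1f2, and the control library from cells transduced with the MSCV retrovirus without it. In both, the cells were CD48-CD150+LSK cells of the bone marrow of wild-type C57BL/6J mice, about 1000 cells per library. The sources used here do not give the age or number of the animals, or the share of cells that took up the virus. ATAC-seq reads out accessibility from the places where a transposase can reach the DNA and join adapters to it. With 1 library per group there were no replicates, and the values of the conditions are set side by side without a test. In a bulk library, fewer cells with an open site and less opening per cell cannot be told apart.

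Hox genes encode homeodomain transcription factors that give cells their position along the body axis. Within a cluster the genes lie in the order of the body parts they pattern, from front genes with low numbers to back genes with high numbers, and equal numbers in different clusters mark related genes (paralogue groups). In blood, Hoxa and Hoxb genes are best known from stem and progenitor cells, where they support self-renewal and are turned down as cells mature. Trithorax proteins such as KMT2A keep Hox genes active, Polycomb proteins keep them silent, and linker histones bind the DNA at the edge of a nucleosome and help to pack it.

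The deposited lists give a fold for each region, the pileup (reads or fragments stacked at the summit) plus 1, divided by that library's local background plus 1. Pileups were solved from the fold and the deposited −log10 p. The genome background, which rises with depth, was 4.40 in H1C and 3.99 in control, and the lowest pileup called at that background was 14 in H1C and 12 in control. A place with no call has no value in the lists, so its pileup is unknown and need not be 0. Of 18 genes known to mark stem and progenitor cells, 3 in H1C and 10 in control had a region within 1000 bp of a gene end (16.7% and 55.6%), among them Kit and Slamf1 in control alone. Over all protein-coding genes the shares were 33.6% in H1C and 46.9% in control, against which the counts of each list are to be read. Mecom, Procr, Gata2, Tek, Lmo2, Cd34 and Fgd5 were among those with none in either library. Of marker genes of other cells, 1 of 5 B cell genes in H1C and 4 of 5 in control had such a region, as did 1 of 5 T cell genes in H1C and 2 of 5 in control. None of 7 myeloid, 6 erythroid and megakaryocyte or 6 non-hematopoietic genes had one in H1C, against 3, 1 and 4 in control. The part of other cells in the results below was not tested.

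By count per Mb, the Hox windows held fewer called regions than the chromosomes as a whole in H1C and more in control. These rates rest on 3 and 13 regions, and no interval was computed for them. The share of bases covered lay below that of the chromosomes in both libraries. Most of the regions had low pileups. H1C had 1 region in the Hoxa window, 1 in Hoxb, 0 in Hoxc and 1 in Hoxd, against 4, 4, 2 and 3 in control. Their median pileup was 18 in H1C and 21 in control, below the median of 27 over all regions of each library. The highest Hox pileups, 21 in H1C and 32 in control, lay below the upper quartiles of 38 and 42 of the same lists. By the deposited fold the control regions lay nearer to their list: the median was 3.52 for the Hox regions and 4.31 for all regions in H1C, and 4.21 for the Hox regions and 4.41 for all in control, where 8 of the 13 lay below the list median. The windows held 3.36 regions per Mb in H1C, from 3 regions, and 14.6 in control, against 4.78 and 11.7 per Mb of the chromosomes. Regions covered 0.0947% of the 4 windows in H1C and 0.445% in control, against 0.178% and 0.471% of the chromosomes as a whole.

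When each list was limited to its top 13012 regions by −log10 p, the order turned, with 3 Hox regions in H1C and 2 in control. The Hox windows, 197 to 274 kb long with 9 to 11 Hox genes each, held 0 or 1 region in H1C and 2 to 4 in control. Over 550 tiles of 250 kb with at least 9 protein-coding genes, the median was 4 regions per tile in H1C (quartiles 2 and 7) and 10 in control (quartiles 4 and 14). Over all 10880 tiles the median was 0 in H1C (quartiles 0 and 2) and 1 in control (quartiles 0 and 4). The control counts of the Hox windows were thus below the median of gene-dense tiles and above that of all tiles.

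**Figure D1:**
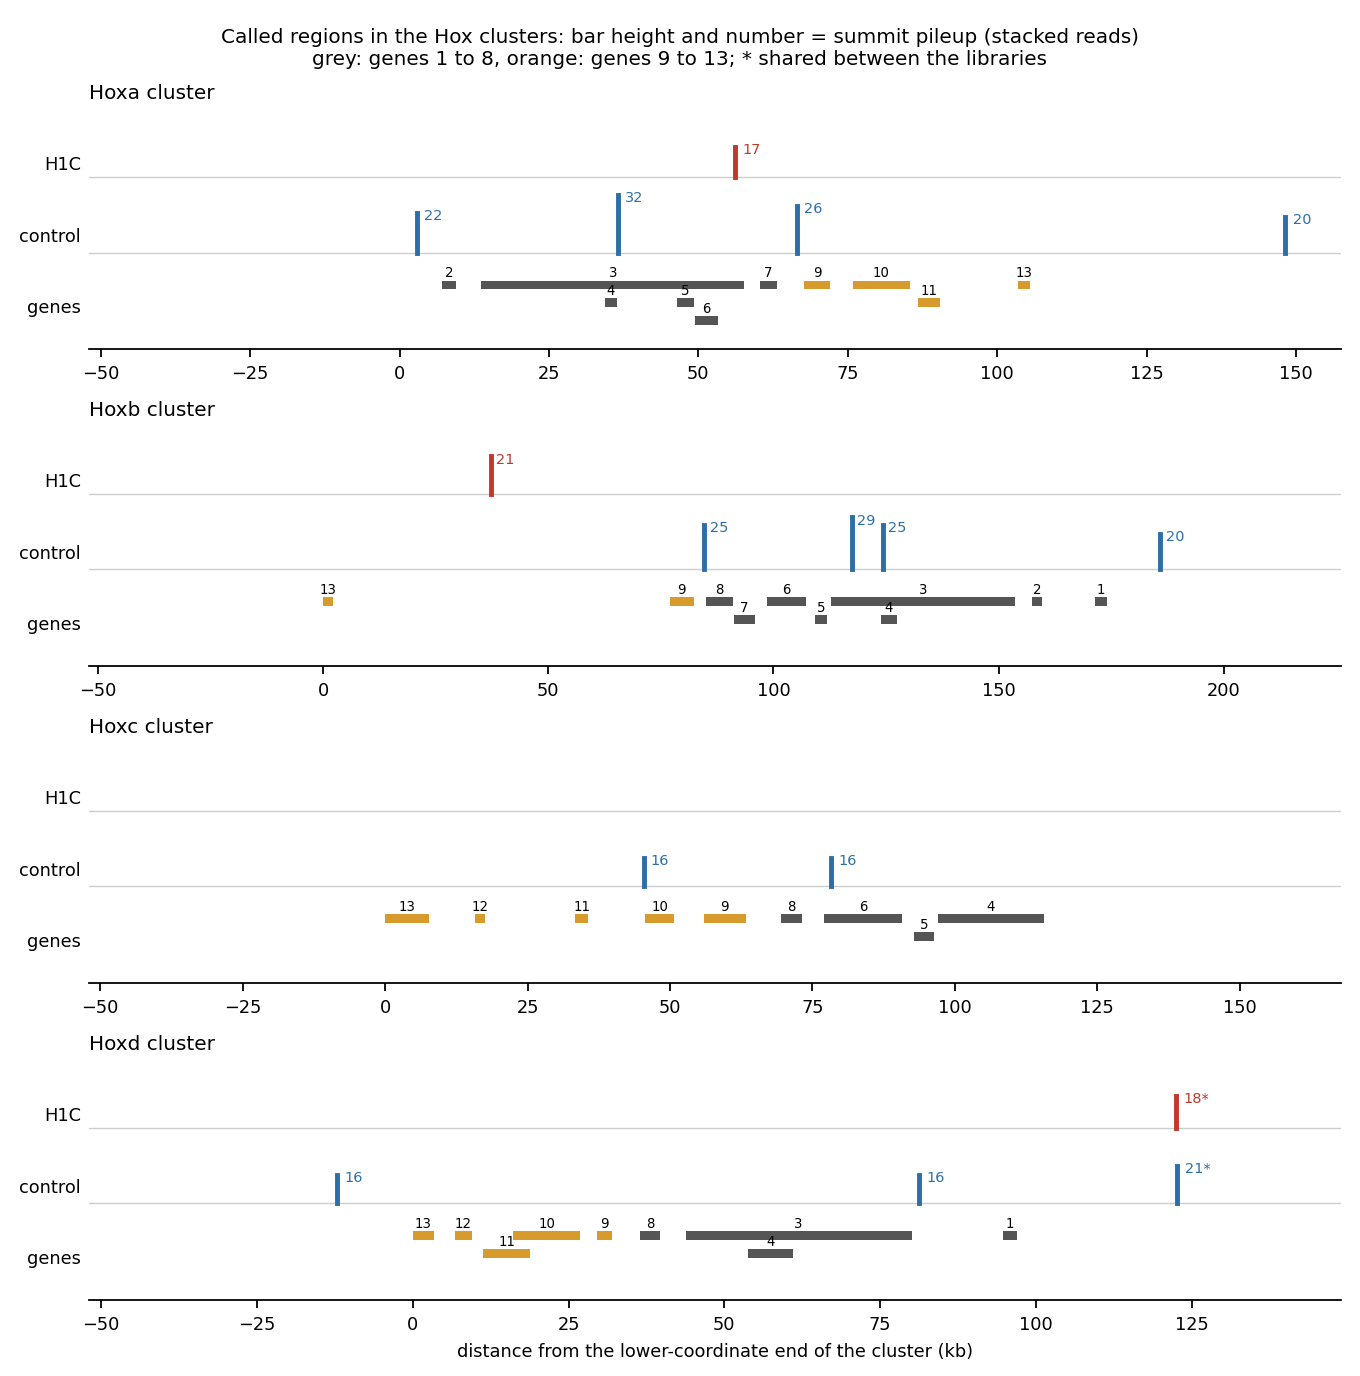
Map of the 4 Hox clusters, in which not every gene is drawn, with distance in kb from the lower-coordinate end of the cluster on the horizontal axis and the summit pileup of each called region as a bar with its number. H1C has 3 bars of 17 to 21 and control has 13 bars of 16 to 32, and the 1 pair marked with a star overlaps.

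The Hoxa cluster (chromosome 6) held the strongest Hox region of the control library and the weakest of the H1C library. In H1C a single region, from 52211395 to 52211717, had a pileup of 17 and a fold of 3.15, higher than 6.13% of the H1C list. It lay inside the gene span of Hoxa3 and of the antisense RNA gene Hoxaas3 and overlapped no control region. Its distance to the listed transcription start of Hoxa3, at the higher-coordinate end of the gene, was 1350 bp. In control, the region from 52191805 to 52192127 had a pileup of 32 (exact Poisson 95% interval 21.9 to 45.2, counting error only) and a fold of 6.13, higher than 76.4% of the control list. It lay 102 bp beyond the higher-coordinate end of Hoxa4. The RefSeq promoters found for this cluster are all on the minus strand, on which this is the upstream side, but Hoxa4 itself has none listed. Hoxa4 is a front gene that patterns the neck region, and the span annotated for Hoxa3 also covers this region.

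The other control regions of the Hoxa window were weaker. Between Hoxa7 and Hoxa9 a region from 52221665 to 52221977 had a pileup of 26 over a raised local background of 6.28, so its fold was 3.71. It lay 1120 bp from Hoxa9, a factor that supports stem cell self-renewal and drives leukemia when overexpressed. Another, with a pileup of 20, lay 42634 bp beyond Hoxa13 and 9742 bp from Evx1, a homeobox gene next to the cluster. H1C had no call at any of the 4 control regions of this window, which had pileups of 20 to 32. Of all control regions, 8.94% at pileups up to 20 and 33.9% at 31 to 40 were called in H1C.

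The Hoxb cluster (chromosome 11, 96194316 to 96368254) had its control regions among or beside the front genes and its H1C region in the stretch without protein-coding genes beside Hoxb13. The H1C region, from 96231470 to 96231700, had a pileup of 21 and a fold of 4.07, with a −log10 q of 5.52, the highest of the 3 H1C regions. It lay 34860 bp from Hoxb13, a back gene known from the prostate and tail, and control had no call there. In control a region from 96278881 to 96279111 had a pileup of 25 and a fold of 5.21. It lay 290 bp before the lower-coordinate end of Hoxb8, the upstream side by the plus strand of its RefSeq promoter. Hoxb8 is a front gene that holds myeloid progenitors immature when overexpressed.

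Further along, a control region from 96318387 to 96318729 lay inside Hoxb4, 120 bp from its start, with a pileup of 25 and a fold of 4.29. Hoxb4 is known for expanding blood stem cells when overexpressed. The strongest Hoxb region in control, from 96311530 to 96311884, had a pileup of 29 and a fold of 5.42. It lay within the span of Hoxb3, 4429 bp from the lower-coordinate end of the gene. A region 11824 bp beyond Hoxb1 had a pileup of 20. The 4 control regions of this window, with pileups of 20 to 29, had no counterpart in H1C. Of all control regions, 8.94% at pileups up to 20 and 17.0% at 26 to 30 were called in H1C.

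The weakest control regions, with pileups of 16, lay in the Hoxc and Hoxd clusters. In the Hoxc window (chromosome 15, genes from 102921131 to 103036856) H1C had 0 regions. Control had 2, both with a pileup of 16. The first, from 102966437 to 102966651, lay 145 bp from Hoxc10, a back gene of limb and lower trunk patterning, with a fold of 3.40. The second, from 102999299 to 102999670, lay inside Hoxc6, 1073 bp from its lower-coordinate end, with a fold of 3.41. Of the control list, 15.0% and 15.2% had a lower fold than these 2 regions.

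In the Hoxd window (chromosome 2, genes from 74668225 to 74765142) the only H1C region lay outside the genes. Control had 3 regions in the window. A region inside Evx2, the homeobox gene beside Hoxd13, and a region inside the noncoding RNA gene Haglr, 1104 bp from Hoxd3, both had a pileup of 16 and a fold of 3.41. The region that both libraries had lay 25458 bp beyond Hoxd1 in H1C and 25639 bp beyond it in control. None of the 9 Hoxd genes, front or back, had a region within 1000 bp of a gene end in either library. Over all protein-coding genes 33.6% in H1C and 46.9% in control had one. Hoxd9 to Hoxd13 are the genes best known from limb and digit patterning.

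The shared Hoxd region was the only place in the 4 windows called in both libraries. In H1C it ran from 74790600 to 74790890 with a pileup of 18 and a fold of 3.52. In control it ran from 74790781 to 74791124 with a pileup of 21 and a fold of 4.41. The regions overlapped by 110 bp and their summits lay 196 bp apart. Scaled by the genome backgrounds, the log2 ratio of H1C to control pileup was -0.36 (exact 95% interval -1.36 to 0.61, counting error only), a difference within counting error. Over 1035 shared regions of the genome with a control pileup within 3 of this one, the median was -0.14 (quartiles -0.34 and 0.01). Over all 10874 shared regions it was -0.79 (quartiles -1.01 and -0.51). Regions with a low control pileup are shared only if they also reached the lowest callable H1C pileup, which keeps their ratios from being far below 0.

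**Figure D2:**
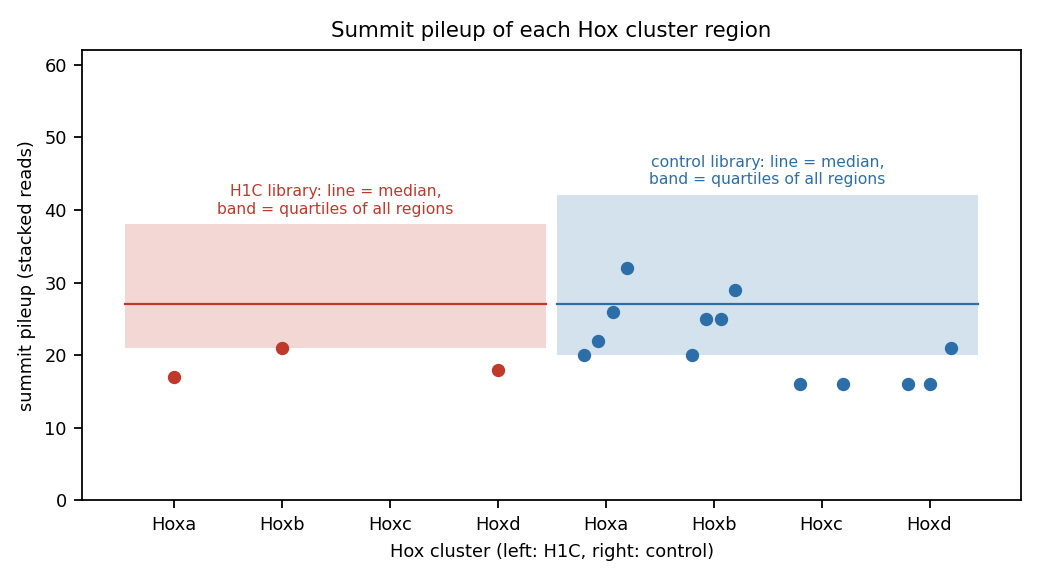
Summit pileup (stacked reads) of each Hox region by cluster, H1C on the left and control on the right, with the median (line) and quartiles (band) of all regions of the same library. The 3 H1C points do not rise above 21, and 2 of the 13 control points, at 29 and 32, stand above the control median of 27.

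Of the 39 Hox genes, 0 in H1C and 4 in control had a region within 1000 bp of either gene end. A count of 0 of 39 allows a share of up to 7.69% by a limit of 3 counts and up to 9.03% by the exact Clopper-Pearson 95% interval, and the control share was 10.3% (exact Clopper-Pearson 95% interval 2.87 to 24.2). The shares over all protein-coding genes were 33.6% in H1C and 46.9% in control. The 4 genes were Hoxa4, Hoxb4, Hoxb8 and Hoxc10, with control pileups of 32, 25, 25 and 16. Neighbouring Hox genes lie close together and are not independent, so the interval is a guide to counting error alone.

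Just outside this limit in control were Hoxc6 (1073 bp), Hoxd3 (1104 bp) and Hoxa9 (1120 bp), and in H1C Hoxa3 (1350 bp). Within 2500 bp, 1 Hox gene in H1C and 9 in control had a region, the additional control genes including Hoxa9, Hoxb9, Hoxc6 and Hoxd3. The share over all protein-coding genes was not computed at 2500 bp, and the shares given above are for 1000 bp. The remaining control distances were longest at Hoxb13, where the nearest region lay 82271 bp away. They were 41529 bp at Hoxd9 and 41442 bp at the front gene Hoxd8. At Hoxc13, Hoxa13 and Hoxd13 they were 37623, 36876 and 11991 bp, and at the front gene Hoxb2 26058 bp.

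By position in the cluster, front genes (paralogue groups 1 to 8) had a gene-end region at 0 of 23 genes in H1C and at 3 of 23 in control (13.0%, 2.78 to 33.6). Back genes (groups 9 to 13) had one at 0 of 16 in H1C and at 1 of 16 in control (6.25%, 0.158 to 30.2). The control intervals of front and back genes overlapped over most of their length. None of the 3 front and 1 back genes with a control region had one in H1C. Over all genes called at an end in control, whatever the pileup, the share was 71.0%. The control pileups of the 4 Hox genes were low, at 32, 25, 25 and 16. Of all control regions, 8.94% were called in H1C at pileups up to 20, 11.5% at 21 to 25 and 33.9% at 31 to 40. A share over genes of the same control pileup was not computed, so a loss particular to Hox genes was not tested. Within 2500 bp the control shares were 26.1% of front and 18.8% of back genes, with no share over all protein-coding genes computed at that distance.

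The sequence of the Hox promoters was compared with their accessibility. RefSeq promoters (GRCm38.p6, 250 bases before to 50 after a transcription start) matched 22 of the 39 genes, with 2 promoters each for Hoxa10 and Hoxd11, 24 in all. Genes with no entry included Hoxa4, Hoxb2, Hoxb3, Hoxb5, Hoxb6, Hoxb7, Hoxb9, Hoxb13, Hoxc5, Hoxc6, Hoxc8, Hoxc9, Hoxc10, Hoxc11, Hoxc12 and Hoxc13. The 250 upstream bases are printed for Hoxb4, which had the only control region within 1000 bp of a listed start, and for Hoxd1, Hoxa9 and Hoxd13, which had none in either library. They are shown 5′ to 3′ with CpG sites in capitals, and the contrast between them is how dense those sites are.
Hoxb4 (chr11:96318017-96318266, + strand): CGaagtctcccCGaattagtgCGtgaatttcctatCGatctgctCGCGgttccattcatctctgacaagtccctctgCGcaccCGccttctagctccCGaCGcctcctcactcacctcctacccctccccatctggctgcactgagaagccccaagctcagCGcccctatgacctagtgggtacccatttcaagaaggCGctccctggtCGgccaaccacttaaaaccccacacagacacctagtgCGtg
Hoxd1 (chr2:74762730-74762979, + strand): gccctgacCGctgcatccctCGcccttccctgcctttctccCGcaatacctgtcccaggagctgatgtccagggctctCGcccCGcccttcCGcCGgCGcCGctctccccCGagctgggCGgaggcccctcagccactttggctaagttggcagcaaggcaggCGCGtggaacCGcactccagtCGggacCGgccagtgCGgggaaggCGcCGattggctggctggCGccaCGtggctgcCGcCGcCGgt
Hoxa9 (chr6:52227371-52227620, - strand): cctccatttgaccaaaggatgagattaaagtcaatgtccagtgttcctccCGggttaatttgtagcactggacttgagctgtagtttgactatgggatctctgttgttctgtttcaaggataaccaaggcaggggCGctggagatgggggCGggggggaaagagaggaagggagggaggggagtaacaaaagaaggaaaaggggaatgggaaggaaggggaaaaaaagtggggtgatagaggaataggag
Hoxd13 (chr2:74667975-74668224, + strand): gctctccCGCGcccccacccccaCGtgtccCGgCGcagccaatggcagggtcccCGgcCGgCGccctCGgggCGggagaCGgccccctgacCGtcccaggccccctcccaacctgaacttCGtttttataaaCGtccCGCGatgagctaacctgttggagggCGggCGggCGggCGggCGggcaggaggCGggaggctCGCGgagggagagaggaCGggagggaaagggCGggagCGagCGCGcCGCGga
The upstream bases of Hoxb4 hold 14 CpG sites and those of Hoxd1, a front gene at the end of its cluster, hold 24. The upstream bases of Hoxa9 hold 3 and those of Hoxd13, a back gene of digit patterning, hold 31. The nearest control region lay 120 bp from the Hoxb4 start, 13192 bp from that of Hoxd1, 5393 bp from that of Hoxa9 and 11991 bp from that of Hoxd13. The promoter with the densest sites of the 4 was thus not the one with a region nearby.

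Among the listed promoters, none of the CpG-rich ones of Hox genes had a region within 1000 bp of the listed start, although most CpG-rich promoters did over all genes. Counting from listed starts misses 3 of the 4 Hox genes with a control gene-end region. Hoxa4 and Hoxc10 have no entry. The listed start of Hoxb8 lies inside the gene, 2794 bp from the control region that is 290 bp upstream of the gene span. The CpG ratio (CpG sites observed over those expected from base composition) had a median of 0.63 over the 24 Hox promoters, range 0.26 to 1.02, against 0.57 over 21263 promoters of protein-coding genes. Median GC content was 57.7% in Hox promoters and 56.3% in all. Of Hox promoters with a CpG ratio of 0.8 or more, 0 of 9 had a region within 1000 bp of the start in either library, against 67.3% of all such promoters in H1C and 82.7% in control. Between 0.6 and 0.8 it was 0 of 3 Hox promoters in either library, against 53.0% of all in H1C and 71.0% in control. Below that, 1 of 12 Hox promoters, that of Hoxb4, had a control region.

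In control 1 of the 24 Hox promoters had a region within 1000 bp of the start, against 47.5% of all promoters. At the genome-wide shares of their CpG classes 13.3 of the 24 would have had one. The count of 1 covers listed starts alone, and so not the regions at Hoxa4, Hoxc10 and the upstream end of Hoxb8. Hoxa5 had the highest ratio of the 24, 1.02, with its nearest control region 12460 bp from the start. Hoxa13 had the highest GC content, 81.0%, with its nearest 38903 bp away.

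**Figure D3:**
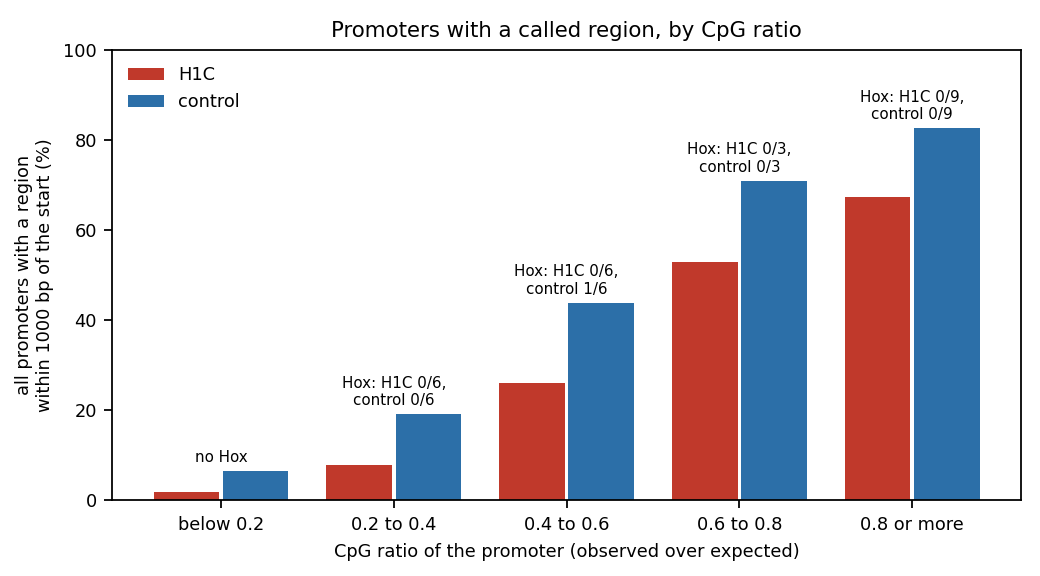
Share of all protein-coding gene promoters with a called region within 1000 bp of the start (vertical axis, percent) by CpG ratio class, H1C left and control right in each pair, with the count of Hox promoters above. In the top class 0 of 9 listed Hox promoters had a region, against 67.3% of all promoters in H1C and 82.7% in control.

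Short motifs were searched on both strands of the 24 Hox promoters. The HOX-PBX pattern TGATTNA was found in 4, those of Hoxa2, Hoxb1, Hoxd8 and 1 promoter of Hoxd11, against 9.17% of all promoters. The back-group HOX pattern TTTATGG was found in that of Hoxd4 alone, against 2.26% of all, and TTTACGA in those of Hoxb8 and Hoxd11, against 0.574%. The ETS pattern CCGGAAG was in 0 of the 24, against 11.6% of all promoters, and the GATA pattern AGATAA in 0, against 9.65%. The HOX patterns TTTATGG and TTTACGA share their first letters but cannot match the same bases on a strand. These letter matches describe the windows and not bound sites.

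Control regions of the Hox windows were rarely called in H1C, as were other control regions of the same height. Of the 13 control regions 1 was also called in H1C (7.69%, exact 95% interval 0.195 to 36.0), against 34.1% of all control regions. The 12 regions without an H1C call had pileups of 16 to 32, and 6 of the 13 lay at 20 or below. Of all control regions with a pileup of up to 20, 8.94% were called in H1C, and the share was 11.5% at 21 to 25, 17.0% at 26 to 30 and 33.9% at 31 to 40. So 1 of the 13 Hox regions was kept, against 1.68 at the genome-wide shares of their pileups. Of the 3 H1C regions 1 overlapped a control region (33.3%, 0.840 to 90.6), against 85.0% of all H1C regions.

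**Figure D4:**
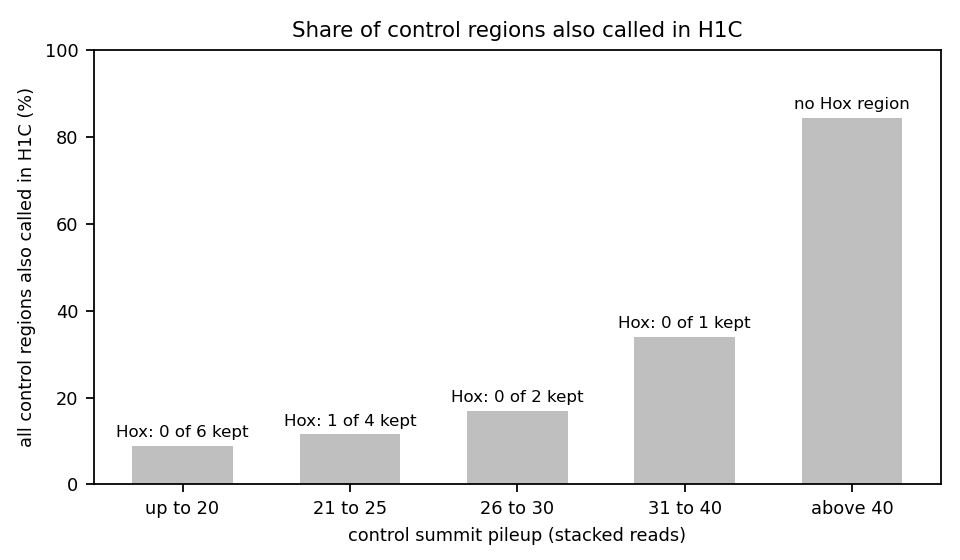
Share of all control regions also called in H1C (vertical axis, percent) by control summit pileup, with the count of Hox regions kept above each bar. The Hox regions sit in the 4 lower classes, where the share for all regions is 8.94% to 33.9%, and none lies in the class above 40, where it is 84.4%.

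Regions were also compared by their place inside and around the clusters. Between the first and last Hox genes lay 2 regions in H1C and 9 in control, and no place was called in both libraries. The 9 control regions had pileups of 16 to 32. Of all control regions, 8.94% at pileups up to 20 and 33.9% at 31 to 40 were called in H1C. The 50 kb flanks held 1 region in H1C and 4 in control, with the shared Hoxd region among them. From 50 to 100 kb away there were 3 regions in H1C and 7 in control, and 2 control regions were also called in H1C. Pileups there were 23, 25 and 34 in H1C, above the 17 to 21 of the Hox windows, and 21, 21, 22, 23, 26, 33 and 66 in control, of which 33 and 66 lay above the 16 to 32 of the Hox windows. The stronger of these lay at Lnpk, an endoplasmic reticulum gene beside the Hoxd cluster, with a pileup of 34 in H1C and 66 in control. The other lay 22688 bp from Skap1, an adaptor gene of T cell signalling, in H1C, with pileups of 25 in H1C and 33 in control. Above a control pileup of 40, 84.4% of all control regions were called in H1C. A difference in sharing between zones at equal pileup was not tested.

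Noncoding genes of the windows that overlapped a region were counted. No share over all noncoding genes was computed, so whether the counts are low is not known. Of 29 long noncoding RNA genes, 1 in H1C (Hoxaas3) and 3 in control (among them Haglr and a locus without a gene name beside Hoxa4) overlapped a region. None of the 6 microRNA genes did, and the nearest was Mir10a, 1113 bp from the control region inside Hoxb4. Hottip and Hotair, noncoding RNA genes that act on Hox expression in human cells, lay 35911 and 18491 bp from the nearest control region.

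Hox genes had gene-end regions at 0 of 39 genes in H1C and 4 of 39 in control, smaller shares than those of genes that act with or on them and than the 33.6% and 46.9% of all protein-coding genes. Among 9 genes of the MEIS, PBX and PKNOX families, which encode DNA-binding partners of HOX proteins, 4 in H1C (44.4%) and 7 in control (77.8%) had a gene-end region, and 4 of the 7 were kept. Pknox1 had pileups of 77 in H1C and 93 in control, while Pbx2 had 52 and Meis1 had 24 in control, both with no call in H1C. Among 20 Trithorax-side and upstream regulators, 10 in H1C (50.0%) and 12 in control (60.0%) had one, with Mllt1 at 38 in H1C and 83 in control. In control alone, Rbbp5 had a pileup of 32 and Cdx2, a homeobox activator of Hox genes, had 14. Among 26 Polycomb genes, 17 in H1C (65.4%) and 24 in control (92.3%) had one. Rbbp4, a histone-binding subunit, had pileups of 58 in H1C and 89 in control, while Ring1, a ubiquitin ligase subunit, had 36 in control and no call in H1C. The kept shares of the 3 lists, 57.1%, 83.3% and 70.8%, lay around the 71.0% of all genes. Evx1 and Evx2, the homeobox genes next to the Hoxa and Hoxd clusters, had no gene-end region in either library.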

How the data were processed

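The libraries, 1 H1C and 1 control, were grouped by their treatment labels. The submitters' processing notes name mm10, MACS2, featureCounts, Picard, Bowtie2 2.2.9 and Trim Galore 0.4.4, without settings. Duplicate removal and any shift to the cut site, which could change summit heights and positions, are unknown. Each deposited list was called on 1 library and gives, per region, the authors' score, ratio (fold), −log10 p and −log10 q (lowest 1.34 in H1C and 1.31 in control) and summit offset.

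Pileups were solved from fold and Poisson −log10 p. They came out whole, at a relative tolerance of 0.0001, for 13155 of 13156 H1C and 32005 of 32005 control entries. Touching entries on chromosomes 1 to 19, X and Y were merged. Sharing needed an overlap of 1 bp or more. RefSeq gave gene ends without strand. The strand, where named, is that of the listed promoters. The lists hold no read totals, so depth was read from the genome background. Intervals are exact, at 95%, for counting error only, and amplified reads are not independent molecules. Pileup solving, region overlap and the search at gene ends were tested on simulated data, with pileups built by the same formula that was solved. Other steps were not tested in this way.

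The members, gene lists and comparisons were chosen with earlier results of these data known. The rule for naming took all H1C regions, those within 1000 bp of a Hox gene, the 3 highest control folds per cluster and, per gene list, up to 2 kept and 2 control-only genes of highest control pileup. Other control regions, genes just outside 1000 bp, DNA 50 to 100 kb away, tiles, CpG classes and pileup classes were chosen after their values were seen. Alternatives covered thresholds, flanks, overlap rules, scalings, windows and the front and back split. Some genes and regions that the rule named are left out of the text. The software was matplotlib 3.10.9, scipy 1.17.1, pandas 2.3.3 and numpy 2.4.6 under Python 3.11.15.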

Additional observations from a re-analysis of the deposited data

How the results depend on the processing

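No paired analysis was possible because there was 1 library per group. Of 39 alternatives for 10 results, 26 stayed within 1.5 times a count or within the interval of a value and 13 moved. The cause of a move was not tested except where the setting itself leaves fewer regions. Many of the 26 could hardly have moved. The kept shares of front and back genes had intervals of 0 to 70.8% (0 of 3) and 0 to 97.5% (0 of 1). The alternatives for the pileup ratio used the same 1 shared region, set against its own wide interval. The count of 26 is therefore no measure of robustness. With flanks of 100 kb there were 6 regions in H1C and 20 in control. At a −log10 q of at least 5, H1C had 1 region. With lists of equal length control had 2 regions, fewer than the 3 of H1C. The share of control Hox regions also called in H1C was 0% with that −log10 q limit (0 of 9), without flanks (0 of 9), with lists of equal length (0 of 2) and with 50% reciprocal overlap (0 of 13). It was 15% with flanks of 100 kb (3 of 20) and 7.69% with summits within 200 bp (1 of 13). The share over all control regions was not computed under the stricter limit, equal lists or other overlap rules. Within 2500 bp, 1 Hox gene in H1C (Hoxa3) and 9 in control had a region. By overlap with the gene body H1C had 1, again Hoxa3. Neither setting has a share over all genes beside it. From the transcription start alone, over the 22 genes with a listed start, control had 1, Hoxb4. Of 12 listed Hox promoters with a CpG ratio of at least 0.6, 0 had a control region, against 77.9% of all such promoters, a class chosen after seeing the data. The log2 ratio of the shared region was -0.02 when scaled by local background and -0.22 without scaling. No Hox region reached a control pileup of 40, and no back gene had a control region at the stricter limit, so these alternatives gave no value. Pileups near the lowest called, 14 in H1C and 12 in control, limit what could be seen at this depth.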
